A study of Mus musculus with 6 samples.

Results

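A set of 10 genes of fatty acid uptake, binding and activation were followed in 3T3-L1 adipocytes: the lipase gene *Lpl*, the uptake genes *Cd36*, *Slc27a1* and *Slc27a4*, the binding protein genes *Fabp4* and *Fabp5*, and the long-chain acyl-CoA synthetase genes *Acsl1*, *Acsl3*, *Acsl4* and *Acsl5*. They were chosen by symbol for their place in the pathway, with earlier results of these data known, and all 10 of them were found among the 24421 gene symbols of the count tables and passed the filter on low counts, which left 12766 genes for testing. 3T3-L1 is a mouse embryo fibroblast line that turns into fat cells in culture. The labels give the strain C57BL/6, while the paper names C57BL/6J for its mice and gives no strain for the cell line. The cells were differentiated with insulin, a TZD, Dex and IBMX, infected on day 7 with 100 pfu per cell of an adenovirus, and harvested for RNA 72 h later. The control group received the *LacZ* virus (AdLacZ, n = 3) and the other group the *Lmo3* virus (Ad*Lmo3*, n = 3). Each library came from a separate infection, and both groups carried a virus and had gone through the same differentiation. No uninfected library entered the comparison. All libraries come from 1 cell line, so the spread between them is that between infections, not between animals.

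Adipocytes take up fatty acids in steps. Lipoprotein lipase, the product of *Lpl*, is secreted and splits triglycerides of circulating lipoproteins. CD36 and the SLC27 (FATP) proteins help the freed fatty acids across the plasma membrane, the FABP proteins bind them in the cytosol, and the ACSL enzymes join them to coenzyme A, after which they can be stored or oxidized. Thioesterases of the ACOT family undo this last step. Several of these genes, among them *Lpl*, *Cd36* and *Fabp4*, are textbook targets of PPARγ and rise as fat cells mature.

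*Fabp4* and *Acsl1* rose by about 50% in Ad*Lmo3*-transduced cells, and *Acsl4* fell. *Fabp4*, the main fatty acid binding protein of adipocytes, was 1.53-fold higher (95% interval 1.30 to 1.81, n = 3 per group), and *Acsl1*, the main long-chain acyl-CoA synthetase of adipocytes, was 1.48-fold higher (1.30 to 1.69). *Acsl4*, an isoform known for its preference for arachidonic acid, dropped to 0.727 times its control level (0.647 to 0.816). The other 7 genes, including *Lpl* and *Cd36*, did not pass the test. Thus 3 of the 10 genes (30%) had an adjusted p below 0.05 in edgeR's quasi-likelihood test, 2 of them higher and 1 lower, where 4.28% of all tested genes did (2.71% higher and 1.57% lower). Over all genes these calls were 346 higher and 201 lower, and 266 higher and 501 lower when libraries were scaled by their totals alone. The groups did not overlap for 4 of the 10 genes, 3 higher and 1 lower, against 26.5% of all tested genes. The median log2 fold change of the 10 genes was 0.13, and that of all tested genes was 0.00.

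Sequence around the transcript starts is shown because 2 synthetases of the same family changed in opposite directions. The windows run from 250 bases before to 50 after a RefSeq transcript start (GRCm38.p6), and 7 of the 10 genes matched with 10 windows in all. *Lpl*, *Fabp4* and *Fabp5* were not among the matches. Capitals mark the motifs searched on both strands, which were the nuclear receptor motif AGGTCA, the CCAAT box CCAAT, the GC box GGGCGG, the TATA box TATAAA and the E-box CACGTG. Neighbouring matches can overlap and then form 1 longer run of capitals. *Acsl1* has a pair of windows on the plus strand of chromosome 8, *Acsl4* has 1 on the minus strand of chromosome X, and *Cd36* has 1 on the minus strand of chromosome 5, shown for contrast as an uptake gene that did not pass the test.
Acsl1 first start, chr8:46470787-46471086, plus strand: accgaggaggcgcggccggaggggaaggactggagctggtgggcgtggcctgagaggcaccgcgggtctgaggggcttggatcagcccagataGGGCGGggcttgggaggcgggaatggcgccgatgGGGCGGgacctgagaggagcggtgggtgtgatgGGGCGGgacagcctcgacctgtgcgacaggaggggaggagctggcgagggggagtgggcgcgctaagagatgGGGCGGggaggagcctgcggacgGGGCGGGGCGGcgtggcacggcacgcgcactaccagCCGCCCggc
Acsl1 second start, chr8:46490716-46491015, plus strand: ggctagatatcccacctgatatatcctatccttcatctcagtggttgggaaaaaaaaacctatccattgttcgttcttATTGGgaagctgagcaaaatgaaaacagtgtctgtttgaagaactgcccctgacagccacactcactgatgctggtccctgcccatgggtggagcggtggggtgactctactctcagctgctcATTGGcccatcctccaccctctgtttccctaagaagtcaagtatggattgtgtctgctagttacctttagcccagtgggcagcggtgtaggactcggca
Acsl4, chrX:142390486-142390785, minus strand: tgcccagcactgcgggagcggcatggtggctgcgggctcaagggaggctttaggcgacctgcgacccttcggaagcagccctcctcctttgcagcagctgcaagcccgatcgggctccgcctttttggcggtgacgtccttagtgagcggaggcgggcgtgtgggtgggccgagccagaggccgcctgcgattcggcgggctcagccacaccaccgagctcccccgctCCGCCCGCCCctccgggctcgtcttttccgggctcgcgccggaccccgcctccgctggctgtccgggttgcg
Cd36, chr5:17835847-17836146, minus strand: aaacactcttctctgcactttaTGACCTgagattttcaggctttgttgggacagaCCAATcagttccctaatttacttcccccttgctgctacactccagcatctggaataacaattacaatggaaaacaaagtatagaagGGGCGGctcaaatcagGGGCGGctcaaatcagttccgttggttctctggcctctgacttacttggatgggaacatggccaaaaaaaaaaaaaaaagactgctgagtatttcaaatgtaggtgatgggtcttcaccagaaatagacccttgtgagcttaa

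In G and C content the first *Acsl1* window was closer to that of *Acsl4* than to the second *Acsl1* window. The first *Acsl1* window was 74.0% G and C with 30 CpG and 7 GC boxes, and the *Acsl4* window was 71.7% G and C with 33 CpG and 2 overlapping GC boxes. The second *Acsl1* window was 50% G and C with 4 CpG, no GC box and 2 CCAAT boxes. The *Cd36* window was 43.0% G and C with 3 CpG and held the only AGGTCA of the 10 windows, next to 1 CCAAT box and 2 GC boxes. Over all 32851 windows of this length the median was 52.7% G and C with 7 CpG. A GC box was present in 35.7% of all windows and in 7 of the 10, a CCAAT box in 37.4% and in 6, AGGTCA in 16.3% and in 1, CACGTG in 7.15% and in 1, and TATAAA in 13.6% and in 0. These matches describe letters only, and the counts per gene symbol do not separate transcripts of the 2 *Acsl1* starts.

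Primers for Q-PCR of *Acsl1* and *Cd36* are listed in the supplement, and are shown for the exons that they read. For *Acsl1* the forward primer cgccaccatcaagatctaacg lies at chr8:46534462-46534482 and the reverse primer gaaggccattggtacgaggag at chr8:46534524-46534544 (GRCm38), both in the last of 21 exons of Acsl1-201, outside the coding sequence, with a product of 83 bp. The *Cd36* primers ggagcaactggtggatggtt (chr5:17835634-17835653) and ttgagactctgaaaggatcagca (chr5:17829505-17829527) lie in exons 1 and 2 of Cd36-201, also outside the coding sequence, with a product of 81 bp. The RNA-Seq counts below are per gene symbol and need not follow either product.

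Library size did not limit these values. The 6 libraries held 28035639 (Ad*Lmo3* replicate 3) to 38332335 (AdLacZ replicate 2) reads counted on genes, and 3 counts, the floor used here, correspond to 0.0783 to 0.107 CPM before TMM scaling (counting error only). Values below are CPM, the counts of a gene divided by its library size after TMM scaling. The 10 genes together took 1.79% to 2.15% of all counts in AdLacZ and 2.23% to 2.56% in Ad*Lmo3* libraries, with *Lpl* alone at 0.888% to 1.16%. *Lmo3* itself had 0 counts in all 6 libraries, which allows up to 3 counts in each. The viral *Lmo3* is codon-optimized, so these counts cannot check the labels.

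Other features of the libraries moved with the groups. Of 13 adipocyte marker genes that are not among the 10, such as *Adipoq*, *Cfd*, *Retn*, *Plin1* and *Pparg*, 10 rose (2.71% of all tested genes did) and the other 3 (*Lep*, *Slc2a4* and *Dgat2*) had positive log2 fold changes without passing the test; the list's median was 0.59. Their summed level was 10365 to 10476 CPM in AdLacZ and 15619 to 18649 CPM in Ad*Lmo3* libraries. Of the preadipocyte markers 0 of 13 passed the test by edgeR, 0 by DESeq2 and 0 at an unadjusted p below 0.05, with sums of 18331 to 22131 CPM in AdLacZ and 17265 to 25244 CPM in Ad*Lmo3* libraries. Macrophage markers were near 0, with sums of 4.61 to 5.94 CPM and 3.29 to 5.32 CPM and 4 of 8 at or below 3 counts in every library, and 0 of 3 tested passed by edgeR or DESeq2 (0 at an unadjusted p below 0.05). Endothelial markers summed to 1.88 to 2.82 CPM and 1.44 to 2.16 CPM, and 0 of 3 tested passed by edgeR or DESeq2 (1 at an unadjusted p below 0.05). The part of the higher adipocyte marker level in the changes of *Fabp4* and *Acsl1* was not tested beyond the ratios given below, and in such bulk RNA a larger number of mature fat cells and more RNA per cell cannot be told apart.

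**Figure D1:**
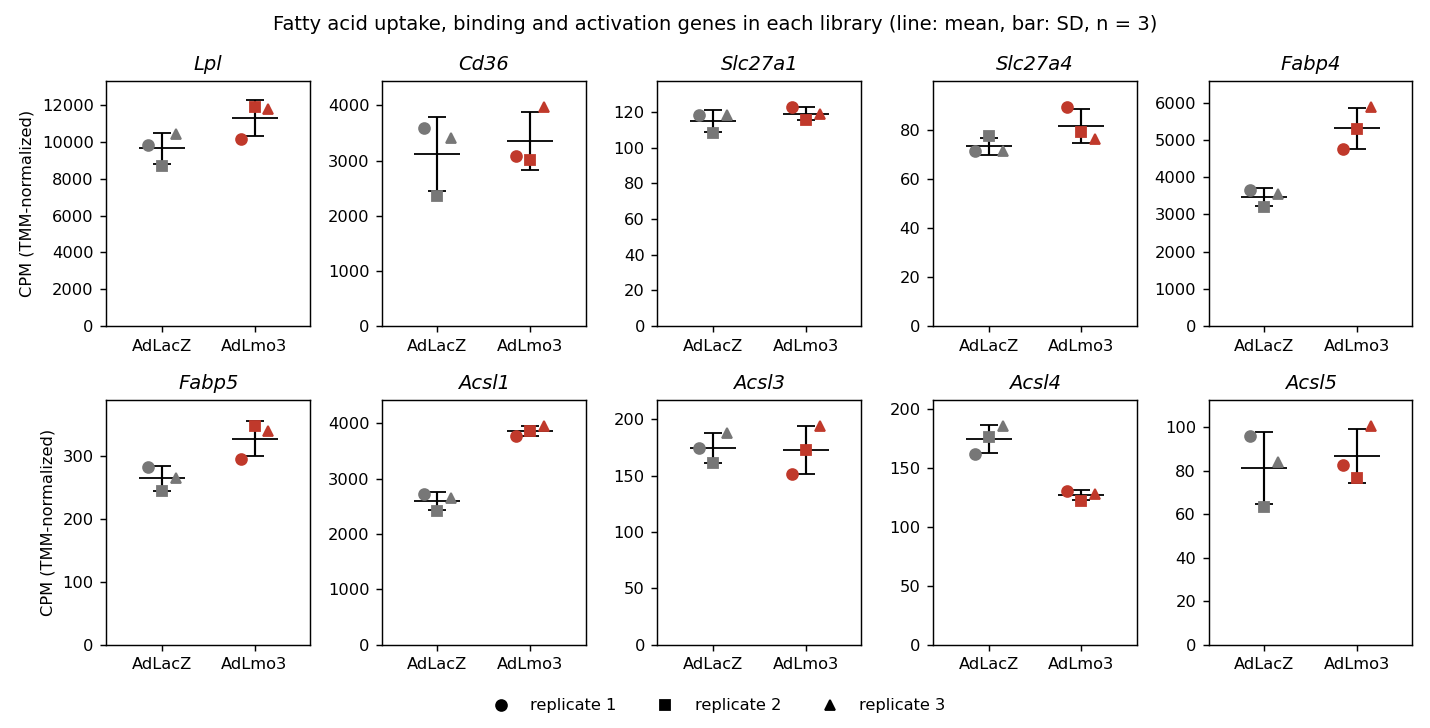
Each panel plots TMM-normalized CPM (axis from 0) of 1 gene in the 3 AdLacZ and 3 AdLmo3 libraries, with marker shapes for the replicate number, a line for the mean and a bar for the SD. Fabp4, Fabp5 and Acsl1 lie higher in every AdLmo3 library than in any AdLacZ library, Acsl4 lies lower, and the groups overlap for the other 6 genes.

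*Lpl* was the gene with the most counts. Its level was 9823, 8708 and 10413 CPM in AdLacZ replicates 1 to 3 and 10185, 11884 and 11816 CPM in Ad*Lmo3* replicates 1 to 3. The groups overlapped, since Ad*Lmo3* replicate 1 lay below AdLacZ replicate 3. The means of 9648 ± 866 and 11295 ± 962 CPM (± SD over 3 libraries, as for all means below) differed by 0.23 on the log2 scale (SE 0.110, 95% interval -0.03 to 0.48, edgeR adjusted p = 0.294). The interval leaves room for any value from a 0.982-fold to a 1.40-fold level.

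Among the uptake genes, none passed the test. *Cd36*, the scavenger receptor that serves as fatty acid translocase, was measured at 3594, 2353 and 3412 CPM in AdLacZ and at 3080, 3011 and 3965 CPM in Ad*Lmo3* libraries. Relative to its mean it varied more between replicates than *Lpl*, *Fabp4* or *Acsl1*, with AdLacZ replicate 2 far below its group and the groups overlapping. The means of 3120 ± 670 and 3352 ± 532 CPM gave a log2 fold change of 0.10 (SE 0.175, 95% interval -0.30 to 0.51, edgeR adjusted p = 0.794). Its sign depended on single libraries, since the log2 fold change was -0.063 without AdLacZ replicate 2 and -0.034 without Ad*Lmo3* replicate 3.

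The 2 SLC27 genes encode FATP1 and FATP4, which also carry acyl-CoA synthetase activity. *Slc27a1*, which encodes FATP1, was at 119, 108 and 119 CPM in AdLacZ and 123, 116 and 119 CPM in Ad*Lmo3* libraries. Its groups overlapped and its log2 fold change was 0.05 (SE 0.0658, 95% interval -0.10 to 0.20, edgeR adjusted p = 0.729), or -0.024 when libraries were scaled by their totals alone. *Slc27a4*, which encodes FATP4, was at 71.4, 77.3 and 71.1 CPM in AdLacZ and 89.1, 79.2 and 76.1 CPM in Ad*Lmo3* libraries. Ad*Lmo3* replicate 3 lay below AdLacZ replicate 2, and the log2 fold change of 0.15 (SE 0.0766, 95% interval -0.02 to 0.33) did not pass the test (edgeR adjusted p = 0.309). For *Slc27a1* the interval lies between a 0.932-fold and a 1.15-fold level, and for *Slc27a4* between 0.984-fold and 1.26-fold.

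Of the binding proteins, *Fabp4* rose. It was at 3655, 3204 and 3543 CPM in AdLacZ and at 4767, 5290 and 5881 CPM in Ad*Lmo3* libraries. Every Ad*Lmo3* library was above every AdLacZ library, and the gap between the groups was wider than the range within AdLacZ. The means of 3467 ± 235 and 5312 ± 557 CPM gave a log2 fold change of 0.62 (SE 0.105, 95% interval 0.38 to 0.86, edgeR adjusted p = 0.0187). The call was lost when single libraries were left out, with adjusted p = 0.0632 without AdLacZ replicate 2, 0.0947 without AdLacZ replicate 3 and 0.0834 without Ad*Lmo3* replicate 2, while the log2 fold change stayed between 0.54 and 0.69.

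*Fabp5*, the second fatty acid binding protein of fat cells, did not pass the same test. Its levels were 282, 244 and 264 CPM in AdLacZ and 295, 347 and 339 CPM in Ad*Lmo3* libraries. The groups did not overlap, which was so for 13.3% of all tested genes with Ad*Lmo3* higher. The means of 264 ± 19.3 and 327 ± 28.4 CPM gave a log2 fold change of 0.31 (SE 0.0892, 95% interval 0.11 to 0.52, edgeR adjusted p = 0.0970). DESeq2 called it higher (adjusted p = 0.0174), so that DESeq2 called 4 of the 10 genes where it called 8.55% of all genes. In GENCODE, 3.03% of the stretches of 75 bp (the read length) in *Fabp5* exons also occur in its copies *Gm6166* and *Gm14328*, and reads from these could be split between symbols.

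*Fabp4* and *Fabp5* lie in the same cluster on chromosome 3 (GRCm38), with *Pmp2* and *Fabp9* between them. *Fabp5* is at chr3:10012548-10016607 on the plus strand and *Fabp4* at chr3:10204088-10208576 on the minus strand. The other 3 genes of this cluster were nearly silent, with at most 7 counts in any library for *Pmp2*, 3 for *Fabp9* and 18 for *Fabp12*. Within a library the balance of the 2 proteins' transcripts can be read without the scaling between libraries. *Fabp4* made up 91.1%, 91.3% and 91.4% of the counts per kb of the pair in AdLacZ and 92.8%, 92.4% and 93.2% in Ad*Lmo3* libraries. The share was higher in every Ad*Lmo3* library, by 1.52 percentage points (91.3 ± 0.136% against 92.8 ± 0.431%). The two-sided exact permutation test gave p = 0.10, the smallest value that 3 against 3 libraries allow.

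The synthetases split. *Acsl1*, which lies at chr8:46471037-46536051 on the plus strand, was at 2732, 2421 and 2660 CPM in AdLacZ and at 3767, 3864 and 3958 CPM in Ad*Lmo3* libraries. The groups were far apart and the Ad*Lmo3* libraries close together. The means of 2604 ± 162 and 3863 ± 95.5 CPM gave a log2 fold change of 0.57 (SE 0.0822, 95% interval 0.38 to 0.76, edgeR adjusted p = 0.0115). The adjusted p was 0.0693 without AdLacZ replicate 3 and 0.0574 without Ad*Lmo3* replicate 2. A gene on the other strand, *Gm45244*, overlaps 9.91% of the *Acsl1* exons, and the strand setting of the counting is not given in the sources used here.

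*Acsl4* moved the other way. It lies at chrX:142317993-142390535 on the minus strand and was at 162, 176 and 185 CPM in AdLacZ and 130, 122 and 127 CPM in Ad*Lmo3* libraries. The groups did not overlap, as for 13.2% of all tested genes with Ad*Lmo3* lower. Its means were 174 ± 12 and 127 ± 4.38 CPM, and the log2 fold change was -0.46 (SE 0.0726, 95% interval -0.63 to -0.29, edgeR adjusted p = 0.0145). The adjusted p was 0.0506 without AdLacZ replicate 2, 0.0785 without AdLacZ replicate 3 and 0.0834 without Ad*Lmo3* replicate 2. Unlike *Acsl1*, it overlaps no other annotated gene in its exons.

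*Acsl3* and *Acsl5* did not pass the test. *Acsl3*, an isoform of the endoplasmic reticulum and lipid droplets, was at 174, 161 and 188 CPM in AdLacZ and 152, 173 and 194 CPM in Ad*Lmo3* libraries. Its groups lay on top of each other, with a log2 fold change of -0.01 (SE 0.102, 95% interval -0.25 to 0.22, edgeR adjusted p = 0.964) that turned to 0.044 without AdLacZ replicate 3 and to 0.076 without Ad*Lmo3* replicate 1. *Acsl5* was at 96.1, 63.5 and 84.0 CPM in AdLacZ and 82.4, 76.8 and 101 CPM in Ad*Lmo3* libraries. AdLacZ replicate 2 was again the lowest, and the log2 fold change of 0.09 (SE 0.156, 95% interval -0.27 to 0.45, edgeR adjusted p = 0.794) turned to -0.057 without it and to -0.028 without Ad*Lmo3* replicate 3. Both genes overlap a neighbour, *Acsl3* over 5.6% of its exons with *Utp14b* on the same strand and *Acsl5* over 8.31% with *Zdhhc6* on the other strand.

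**Figure D2:**
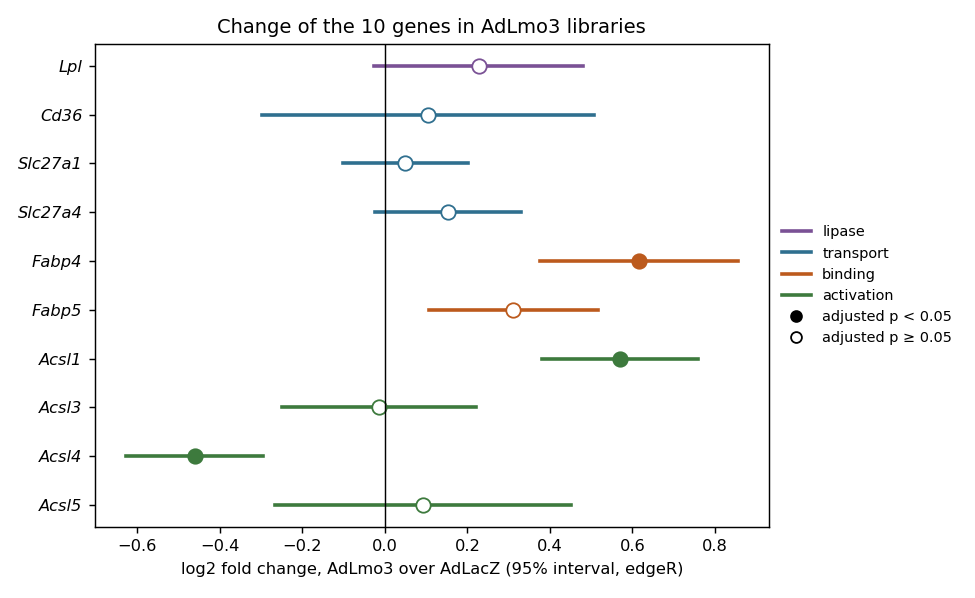
Points give the log2 fold change of AdLmo3 over AdLacZ for each of the 10 genes and lines its 95% interval, coloured by step of the pathway; filled points passed the test. Fabp4 (0.62) and Acsl1 (0.57) lie right of 0 and Acsl4 (-0.46) left of it, and of the 7 open points only the interval of Fabp5 (0.11 to 0.52) does not reach 0.

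The makeup of the synthetase transcripts changed with these values. Per kb of merged exons, *Acsl1* made up 74.4%, 73.7% and 72.8% of the 4 genes in AdLacZ and 82.6%, 82.5% and 81.0% in Ad*Lmo3* libraries. The share was higher in every Ad*Lmo3* library, by 8.39 percentage points (73.6 ± 0.801% against 82.0 ± 0.922%, two-sided exact permutation p = 0.10, the smallest possible). With the length of the longest coding transcript in place of all exons the difference was 4.44 points, since *Acsl1* then already made up 87.4% in AdLacZ. The share of *Acsl4* fell from 9.58 ± 0.939% to 5.22 ± 0.287% and that of *Acsl3* from 11.9 ± 0.491% to 8.81 ± 0.777%, both with groups apart, while for *Acsl5* the groups overlapped (4.92 ± 0.738% and 3.95 ± 0.454%). The 4 shares are parts of the same sum, so a higher *Acsl1* level by itself lowers the other shares. The level of *Acsl3* had a log2 fold change of only -0.01. *Acsl6*, the fifth gene of the family, was at or near 0 in every library.

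**Figure D3:**
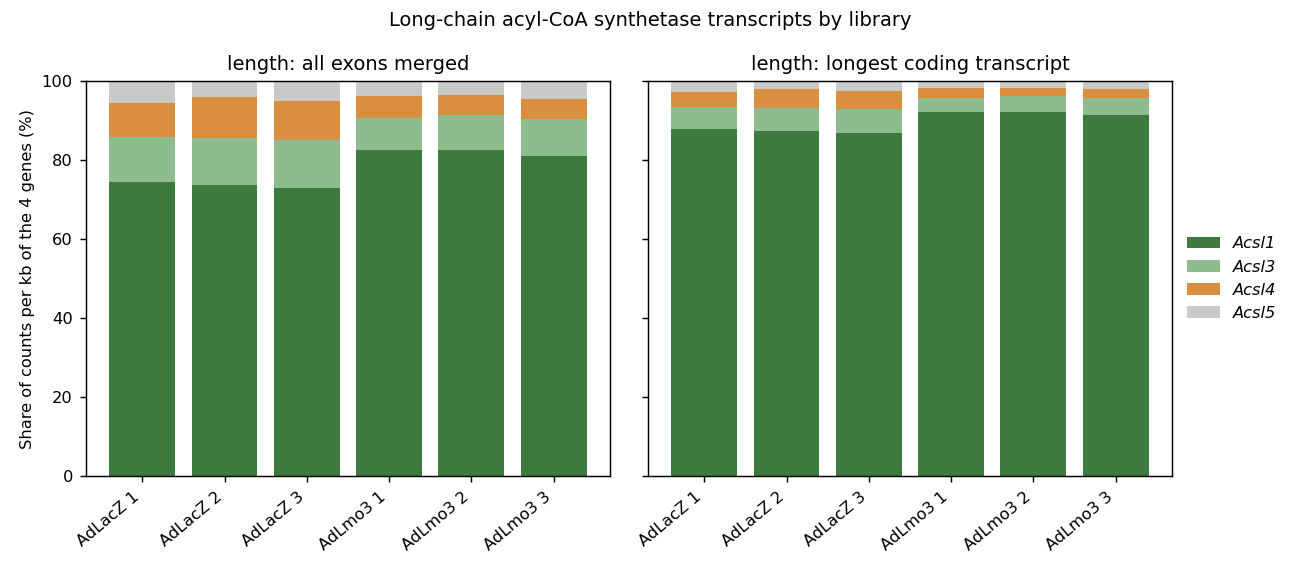
Stacked bars give the share (%) of each of 4 Acsl genes in their summed counts per kb, in each library, with gene length taken from all exons merged (left) or the longest coding transcript (right). The Acsl1 part is 72.8% to 74.4% in AdLacZ and 81.0% to 82.6% in AdLmo3 libraries on the left, and higher in AdLmo3 in both panels.

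Ratios between pairs of genes within a library need no scaling between libraries. The log2 ratio of *Acsl1* to *Acsl4* was 3.12, 2.83 and 2.89 in AdLacZ and 3.90, 4.03 and 4.0 in Ad*Lmo3* libraries, a difference of 1.03 with groups apart. Against *Acsl3* and *Acsl5*, *Acsl1* rose by 0.59 and 0.47 on the same scale, also with groups apart, and *Acsl3* against *Acsl5* differed by -0.12 with overlap (p = 0.70, exact permutation). *Fabp4* gained 0.30 on *Fabp5*, 0.38 on *Lpl* and 0.50 on *Cd36*, each with groups apart. *Acsl1* gained 0.34 on *Lpl* with groups apart and 0.45 on *Cd36* with overlap (p = 0.20, exact permutation). All ratios with groups apart had an exact permutation p of 0.10, which cannot pass 0.05 in this design. All but the first were chosen after the data had been seen, and the genes of the first with earlier results of these data known.

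The level order depended on the length used. In AdLacZ, per kb of merged exons, *Lpl* (921 ± 82.6 CPM per kb), *Cd36* (869 ± 187) and *Fabp4* (772 ± 52.3) were the highest, and neighbours among these 3 overlapped. *Acsl1* (248 ± 15.5), *Fabp5* (73.9 ± 5.40), *Acsl3* (40 ± 3.09) and *Acsl4* (32.2 ± 2.22) followed, each apart from the next. *Slc27a1* (19.7 ± 1.03), *Acsl5* (16.7 ± 3.38) and *Slc27a4* (16.6 ± 0.791) came last and overlapped with their neighbours. In Ad*Lmo3* libraries *Fabp4* was first (1183 ± 124 CPM per kb), overlapping with *Lpl* (1078 ± 91.8), which overlapped with *Cd36* (934 ± 148). The merged exons of *Fabp4* (4489 bp) cover its whole gene span, introns of its coding transcript included, which lowers its value per kb. Its longest coding transcript is 896 bp. By the length of the longest coding transcript *Fabp4* led in both groups (3870 ± 262 in AdLacZ and 5929 ± 622 CPM per kb in Ad*Lmo3*), apart from *Lpl* (2345 ± 210 and 2745 ± 234). With that length *Acsl1* overlapped with *Cd36* in Ad*Lmo3* libraries (991 ± 24.5 and 986 ± 157 CPM per kb), while in AdLacZ libraries *Cd36* (918 ± 197) lay above *Acsl1* (668 ± 41.7) with overlap.

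Libraries were not alike within a group. AdLacZ replicate 2 was the lowest of its group for 8 of the 10 genes, all but *Slc27a4* and *Acsl4*, and Ad*Lmo3* replicate 1 the lowest of its group for 5. Leaving out AdLacZ replicate 2 left 1 of the 10 genes past the test, and leaving out AdLacZ replicate 3 or Ad*Lmo3* replicate 2 left 0. Over all genes 238, 77 and 152 passed in these fits, against 547 with all libraries. In each of these 3 fits 4 of the 10 had an unadjusted p below 0.05 in edgeR, as did 21.0%, 14.6% and 15.4% of all genes tested in them.

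Relative to the adipocyte markers, *Fabp4* and *Acsl1* had overlapping groups and the other 8 genes were lower in every Ad*Lmo3* library. The summed level of the 13 markers was 1.66-fold higher in Ad*Lmo3* libraries (10416 ± 56.0 and 17279 ± 1536 CPM). That is 0.73 on the log2 scale, above the markers' median log2 fold change of 0.59. Abundant markers weigh most in the sum, and the highest, *Cfd* and *Adipoq*, had log2 fold changes of 0.81 and 1.05. The log2 ratio to this sum changed by -0.11 for *Fabp4* and -0.16 for *Acsl1*, with overlapping groups (exact permutation p = 0.20 each). Among the 8 lower genes the change was -0.42 for *Fabp5*, -0.50 for *Lpl*, -0.61 for *Cd36* and -1.19 for *Acsl4* (exact permutation p = 0.10 each). By this measure 85.0% of all tested genes were lower without overlap, so that 8 of 10 is near the share over all genes, and 0.376% were higher. This ratio was chosen after the data had been seen.

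**Figure D4:**
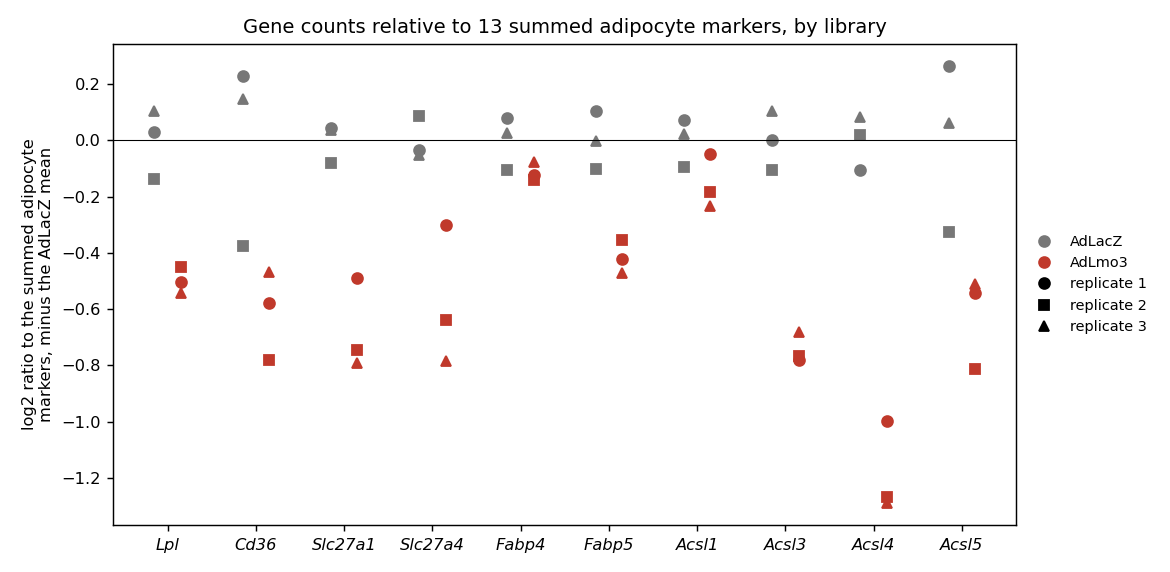
Points give, for each library, the log2 ratio of a gene to the summed CPM of 13 adipocyte markers, minus the gene's AdLacZ mean, with grey for AdLacZ, red for AdLmo3 and shapes for replicate numbers. The AdLmo3 points overlap the AdLacZ points for Fabp4 and Acsl1, lie below them for the other 8 genes, and lie lowest for Acsl4 (mean difference -1.19).

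Around the 10 genes, 68 further genes of the same steps were listed by function, of which 39 were tested and 9 passed the test (23.1%), 6 higher and 3 lower, with a median log2 fold change of 0.04. Over all tested genes 4.28% passed, 2.71% higher and 1.57% lower, which is also the background of the counts per list below. Without AdLacZ replicates 1, 2 or 3 in turn 4, 2 and 1 of the 39 passed, and without Ad*Lmo3* replicates 1, 2 or 3 in turn 10, 2 and 2. The background moved as well. Over all genes 284, 238 and 77 passed without AdLacZ replicates 1, 2 or 3 in turn. Without Ad*Lmo3* replicates 1, 2 or 3 in turn 501, 152 and 289 passed. These fits tested 12858 to 12930 genes, and the fit of all libraries called 547 of 12766. The following paragraphs give the pathway genes that passed and the most abundant gene of each list.

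Among the pathway genes that passed, the largest log2 fold change was that of an LPL partner. *Gm6484*, an older symbol that RefSeq gives for *Angptl8*, a secreted inhibitor of LPL, was at 5.14, 5.91 and 5.01 CPM in AdLacZ and at 14.4, 15.4 and 17.1 CPM in Ad*Lmo3* libraries. All Ad*Lmo3* libraries were far above the controls, and the log2 fold change was 1.54 (SE 0.116, edgeR adjusted p = 0.00243), past the test in each of the 15 other settings tried. *Sel1l*, an endoplasmic reticulum protein needed for LPL to leave that compartment, fell from 404 ± 35.1 to 296 ± 12.7 CPM (log2 fold change -0.45, edgeR adjusted p = 0.0240). The other 7 tested of the 13 partners did not pass. *Lrp1*, a lipoprotein receptor and the most abundant of them, was at 590 ± 84.6 and 772 ± 116 CPM (edgeR adjusted p = 0.158), and DESeq2 called it higher (adjusted p = 0.0354). DESeq2 called 5 of the 9 tested partners and 12 of the 39 pathway genes, against 8.55% of all genes. *Gpihbp1*, the endothelial anchor of LPL, was too low to be tested.

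Of 10 other transport genes 6 were tested, and *Cav1*, the caveolar coat protein and the most abundant of them, rose from 2111 ± 198 to 3081 ± 224 CPM (log2 fold change 0.55, SE 0.0989, edgeR adjusted p = 0.0237). Of 15 other fatty acid and acyl-CoA binding proteins 7 were tested and 3 rose, and *Fabp1* and *Fabp2* had 0 counts in all 6 libraries. *Dbi*, the acyl-CoA binding protein, was at 415 ± 39.2 and 582 ± 23.9 CPM (log2 fold change 0.49, edgeR adjusted p = 0.0202). *Acbd4* was at 103 ± 0.912 and 130 ± 7.49 CPM (0.33, edgeR adjusted p = 0.0321). *Scp2*, a sterol and acyl-CoA carrier, was at 284 ± 16.2 and 374 ± 25.7 CPM (0.39, edgeR adjusted p = 0.0335), and 25.6% of its stretches of 75 bp also occur in other annotated genes.

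In the further synthetases 1 gene passed and was higher, and in the opposing thioesterases 2 passed and were lower. Of 14 further synthetase genes 8 were tested and *Acss2*, which activates acetate, rose from 128 ± 10.5 to 202 ± 34.4 CPM (log2 fold change 0.66, SE 0.127, edgeR adjusted p = 0.0287). *Aacs*, which activates acetoacetate and was the most abundant of this list, was at 249 ± 11.9 and 239 ± 3.50 CPM (edgeR adjusted p = 0.679). Of 16 thioesterases 9 were tested, 2 fell and 0 rose. *Acot2*, a mitochondrial thioesterase, was at 103, 101 and 108 CPM in AdLacZ and at 70.1, 59.0 and 52.6 CPM in Ad*Lmo3* libraries, a log2 fold change of -0.78 (SE 0.102, edgeR adjusted p = 0.00780, and 0.0558 without AdLacZ replicate 3). Of its stretches of 75 bp 21.2% are shared with *Acot1*, *Acot5* or *Acot4*, so its counts are uncertain where such reads could be split. *Them4* fell from 13.7 ± 0.898 to 9.83 ± 0.868 CPM (-0.48, edgeR adjusted p = 0.0445), and *Acot9*, the most abundant by the mean over all 6 libraries although below *Acot2* in every AdLacZ library, was at 86.7 ± 2.63 and 78.2 ± 1.21 CPM (edgeR adjusted p = 0.182). Apart from *Gm6484* and *Acot2*, each of these 9 genes lost its call in at least 4 of the 6 fits without 1 library, with adjusted p up to 0.163. These were the fits without AdLacZ replicates 2 or 3 and without Ad*Lmo3* replicates 2 or 3 for all 7, and also without AdLacZ replicate 1 for *Cav1*, *Acbd4*, *Scp2*, *Acss2* and *Them4*. *Acbd4* and *Scp2* also did not pass with library totals alone as scaling (edgeR adjusted p = 0.0567 and 0.0527). With a replicate block *Acbd4*, *Scp2*, *Acss2* and *Them4* did not pass.

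**Figure D5:**
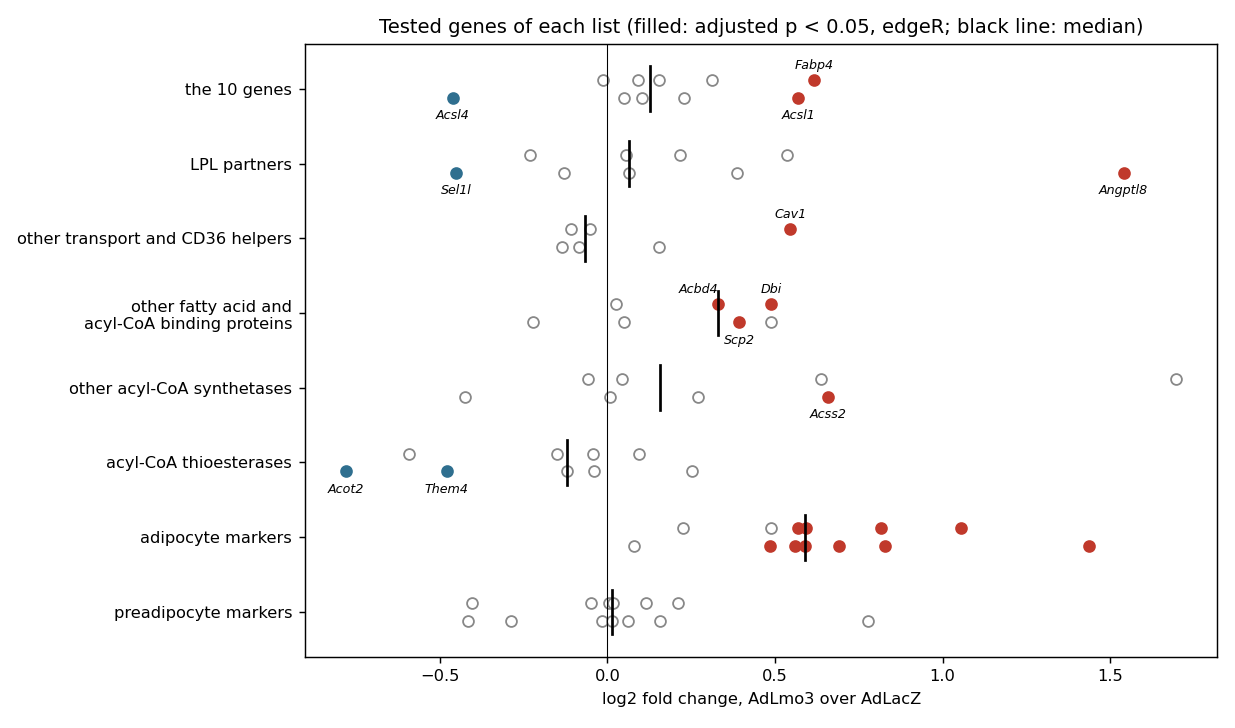
Points give the log2 fold change (AdLmo3 over AdLacZ) of each tested gene of the 10 genes and of 7 lists, filled where the adjusted p was below 0.05, with a black line at each list's median; Gm6484 is labelled Angptl8. The adipocyte markers sit at a median of 0.59 and the 5 pathway lists between -0.12 and 0.33.

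The genes whose log2 CPM followed *Fabp4* most closely over the 6 libraries were *Fundc2* (Pearson r = 0.996), *Extl3* (0.996) and *Adcyap1r1* (0.995), and those most like *Acsl4* were *Clcn3* (0.998), *Dctn5* (0.997) and *Vezf1* (0.997). These are descriptions of 6 points that fall into 2 groups and share libraries and scaling, picked as the highest of 12766 genes.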

How the data were processed

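RNA-Seq libraries (NEBNext Ultra II, single reads of 75 bp) were made from 6 infections of 3T3-L1 adipocytes. The authors deposited raw counts of reads per gene symbol, 1 table per library; the submitters' processing notes name bcl2fastq, STAR 2.5.0b, DESeq2 1.6.3 and mm10. The counting program, annotation and strand setting are not given in the sources used here. Reads given to no gene (7.15% to 8.94%) or to several (0.476% to 0.543%) were left out. Group and replicate were taken from the labels.

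The whole count table was fitted by the quasi-likelihood test of edgeR 4.0.16 (R 4.3.3), after filterByExpr and TMM scaling and without a replicate block, with Benjamini-Hochberg adjustment over 12766 genes and a threshold of 0.05. Alternatives were DESeq2 1.42.0, limma 3.58.1 (voom), other scalings and filters, thinning to the smallest library total, a replicate block, and leaving out each library. Values within a library were compared by two-sided exact permutation tests (scipy 1.17.1). The fit was tested on simulated data. Gene positions, lengths and shared stretches of 75 bp came from GENCODE on GRCm38, promoter windows from RefSeq, primers from the study's supplement. The genes and lists were chosen with earlier results of these data known. Named were the 10 genes, the pathway genes past the threshold, the most abundant tested gene of each list, and the 3 genes most correlated with *Fabp4* and with *Acsl4*. Figures were drawn with matplotlib 3.10.9.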

Additional observations from a re-analysis of the deposited data

How the results depend on the processing

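Over the 15 other settings, *Fabp4* was called in 12, *Acsl1* in 13 and *Acsl4* in 12, always in the same direction, and no call of these 3 was lost except on leaving out a library. The number of genes past the threshold was 547 in the reported fit, 1104 with DESeq2, and 77 to 501 when 1 library was left out; of the 10 genes, 0 to 3 passed on leaving out a library, and 4 with DESeq2. Of the 39 other pathway genes 9 passed, 1 to 10 on leaving out a library. With library totals alone as scaling, the median of all genes shifted by -0.07 and the calls split into 266 higher and 501 lower (346 and 201 with TMM), and *Slc27a1* turned to -0.024. Leaving out 1 library moved the log2 fold change over -0.063 to 0.22 for *Cd36*, -0.10 to 0.076 for *Acsl3* and -0.057 to 0.23 for *Acsl5*, so their directions were not stable; the cause was not tested. Whether equal replicate numbers mark a shared batch is not given by the labels, and correlations between libraries could not decide it. Deviations of same-numbered libraries correlated at 0.03, 0.16 and 0.17. Libraries numbered 2 and 3 correlated best with their own number, and those numbered 1 did not. With the replicate block 498 genes passed, 400 of them shared with the reported fit. Of the 10 genes 3 passed (*Fabp4* 0.0304, *Acsl1* 0.0224 and *Acsl4* 0.0284 as edgeR adjusted p). Of the pathway genes 5 passed, without *Acbd4* (0.0532), *Scp2* (0.0509), *Acss2* (0.0537) and *Them4* (0.0770). The differences in *Fabp4* share, *Acsl1* share and the *Acsl1* to *Acsl4* ratio kept their direction in every fit without 1 library. Depth did not limit the 10 genes, each of which had at least 2055 counts in every library.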

Other observations

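Among the 39 tested pathway genes, 17 had groups that did not overlap (26.5% of all tested genes did), and some of these did not pass the test; they are named here after their values were seen. *Angptl4*, a secreted inhibitor of LPL like the product of *Gm6484*, was at 427, 404 and 452 CPM in AdLacZ and 345, 371 and 377 CPM in Ad*Lmo3* libraries (log2 fold change -0.23, edgeR adjusted p = 0.128). *Apoc1*, an apolipoprotein that inhibits LPL, was at 195 ± 7.63 and 227 ± 8.99 CPM (0.22, edgeR adjusted p = 0.115). The acyl-CoA binding protein gene *Acbd3* was at 97.1 ± 4.28 and 83.2 ± 4.62 CPM (-0.22, edgeR adjusted p = 0.113). *Acsm3*, a medium-chain synthetase, had 5 to 8 counts per AdLacZ and 14 to 22 counts per Ad*Lmo3* library (edgeR adjusted p = 0.0583). *Acsm5* had 12 to 19 and 21 to 23 counts (edgeR adjusted p = 0.290). The rest were *Zdhhc4* (log2 fold change -0.14, edgeR adjusted p = 0.319), *Zdhhc5* (0.15, 0.217) and *Acot9* (-0.15, 0.182).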
